A study of Drosophila melanogaster with 12 samples.

Results

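The genes described here are the messages that peaked in embryos of *Drosophila melanogaster* aged 12 to 18 h, outside the named cuticle protein families. They were chosen by their own mRNA-seq levels: an FPKM (fragments scaled to gene length and to library size) of at least 50 in the 12 to 18 h library that was also at least 5 times the level in both neighbouring libraries. Symbols with a colon and those starting with *Cpr*, *Twdl*, *Ccp84A*, *Lcp*, *Osi* or *Obp* were dropped. Of the 14977 genes in the table, 189 met the thresholds. The dropped symbols accounted for 40 of these (15 *Twdl*, 12 *Cpr*, 9 *Osi* and 4 *Ccp84A* genes), and 149 genes were left, 0.995% of the table. The current annotation lists 148 of them as protein coding and *CR31781* as a long noncoding RNA.

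Whole embryos came from 6 timepoints. The first 3, called T1, T2 and T3, ended at 45 min, 90 min and 6 h of age, each starting where the one before it ended, and the later ones spanned 6 to 12 h (T4), 12 to 18 h (T5) and 18 to 24 h (T6). RNA of each timepoint went into 1 miCLIP library, in which RNA fragments bound by an antibody against the RNA modification m6A are cross-linked and sequenced, and into 1 mRNA-seq library. The labels name no treatment. The growth protocol and the study's methods give the strain as Canton S, whereas the strain entry of the samples gives yw. No group has a replicate, so no difference below has a test, and each describes these 12 libraries only. Whole embryos mix all tissues, and more cells of a type and more RNA per cell cannot be told apart.

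Late embryos of the fly build the larval cuticle. Epidermal and tracheal cells secrete chitin, a polymer of N-acetylglucosamine, together with cuticle proteins, a lipid envelope and enzymes that cross-link the layers, and they do so in a short window before hatching. A pulse of the steroid hormone ecdysone precedes this phase. The nuclear receptor *ftz-f1* and the ecdysone hydroxylase *Cyp18a1*, both among the 149 genes, belong to the hormone's known response.

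The miCLIP libraries had between 4251686 and 14484576 reads on genes and the mRNA-seq libraries between 23127955 and 25486971, as recovered from the values. At T5, each of the 149 genes had at least 101 miCLIP reads and 774 mRNA-seq reads. A pair of libraries stood apart. The miCLIP library labelled T6 had low levels of the messages that marked T6 in mRNA-seq. Of the 298 genes with at least 50 FPKM in T6 mRNA-seq and 5 times the level in T3, T4 and T5, the median was 0 FPKM in that miCLIP library, against 195 FPKM in T6 mRNA-seq, and 165 of them were listed at 0 in miCLIP. Over the 12091 genes that reached 1 FPKM in any library, its Spearman correlation was 0.67 with T5 mRNA-seq, 0.64 with T4 and 0.48 with T6. The correlation is a description across genes, which are not independent. The number of genes at least 5 times higher at T5 in miCLIP and the number highest at T5 are therefore also given without it, and every other value that uses it is named as such. The T1 mRNA-seq library held a small share of the T5 level of most of the 149 genes, which is described below with its values.

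The values that chose the genes are given first, as a description. Median mRNA-seq levels over the 149 genes were 1.14 FPKM at T1, 0.139 at T2, 0.170 at T3, 3.0 at T4, 186 at T5 and 7.27 at T6. Together the 149 genes made up 0.226% of the FPKM sum at T4, 6.23% at T5 and 0.241% at T6. The level at T5 was a median of 55.6 times that at T4 and 24.0 times that at T6. The peak was thus steeper on the side of T4 than on the side of T6 for most genes, and 102 of 149 had a higher level in T6 than in T4. The heat map of all libraries shows both sides of the peak.

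**Figure D1:**
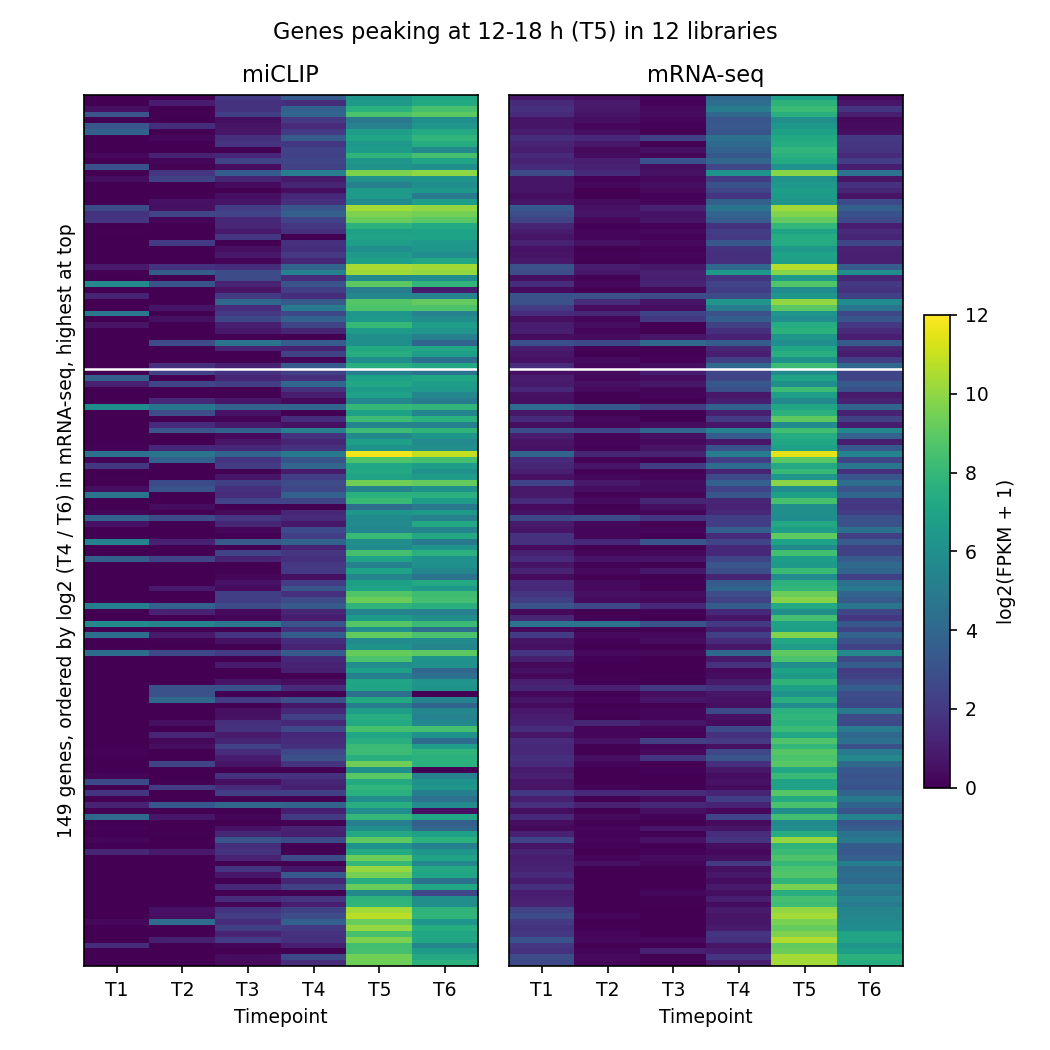
Level of each of the 149 genes (rows) as log2(FPKM + 1) in the 6 miCLIP libraries (left) and the 6 mRNA-seq libraries (right), ordered by the log2 ratio of T4 over T6 in mRNA-seq, with the 47 genes higher in T4 than in T6 above the white line and the 102 others under it. In mRNA-seq the band at T5 stands alone, whereas in miCLIP it extends into the library labelled T6.

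The values closest to the thresholds show how the rule drew its line. Inside the limit of 50 FPKM lay *CG7432* (51.3 FPKM at T5), *CG31871* (52.8) and *CG11353* (52.9), and outside it *mtg* (49.9), *CG10175* (49.5) and *CG15649* (49.1). Inside the limit of 5 times T4 lay *CG12402* (5.31 times), *GLaz* (5.77) and *CG15080* (6.31), and outside it *CG15239* (4.96), *Cyt-c-d* (4.93) and *CG5973* (4.87). Inside the limit of 5 times T6 lay *CG16786* (5.12 times), *CG1092* (5.13) and *CG16820* (5.28), and outside it *CG8736* (4.95), *Spn88Ea* (4.90) and *CG13678* (4.88). Genes on either side of each limit thus had nearly the same values.

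The most abundant of the genes at T5 are mostly without a given name. *CG2962* had 13.4, 1.38, 1.31, 32.9, 2954 and 41.6 FPKM in mRNA-seq and 22.0, 24.1, 13.1, 28.05, 3432 and 1902 FPKM in miCLIP, each from T1 to T6. Its T5 level was the highest of the 149 genes in both assays, and it ranked 44th in T5 mRNA-seq among all genes. The next 11 genes in T5 mRNA-seq were *CG15022* (1614 FPKM), *CG17290* (1529), *CG13463* (1342, now called *EAChm*), *CG13041* (1303), *CG15212* (1279), *CG9083* (1246), *CG30413* (1073), *CG13051* (1063), *CG31626* (1047), *CG15731* (972) and *CG4115* (932). In T5 miCLIP these 11 genes lay between 438 FPKM (*CG30413*) and 1742 FPKM (*CG15212*). *CG9083* overlaps *Tpc2*, a thiamine pyrophosphate carrier that is also among the 149 genes (551 FPKM at T5), so the reads of this pair may not be fully separated. In all, 47 of the 149 genes overlap another annotated gene, a number given without the share over all genes.

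The 6 genes with the largest ratio of T5 over the higher of T4 and T6 in mRNA-seq were *CG13048* (188 times), *CG34461* (156), *CG13239* (144), *CG14752* (133), *CG11584* (130) and *CG12523* (127). *CG13048* had 0.990 FPKM at T4, 186 at T5 and 0.960 at T6. *CG34461*, a cuticle protein of the *Cpr* family under its older symbol, had 1.0 FPKM at T4, 205 at T5 and 1.32 at T6.

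The miCLIP libraries were not used by the rule, although they were made from the same RNA. On the side of T4 they showed the same step as mRNA-seq: T5 was at least 5 times T4 for 148 of 149 genes, whereas this held for 26.2% of the 9849 genes that reached 1 FPKM in T5 miCLIP. The median log2 ratio of T5 over T4 (with a pseudocount of 1, as in all log2 ratios here) was 5.31 in miCLIP and 5.36 in mRNA-seq. Over all 9849 genes it was 0.45 in miCLIP. Among the miCLIP libraries from T1 to T5, T5 was the highest for all 149 genes, for which no share over all genes is given here. The ratio below 5 belonged to 1 gene, *CG14570* (62.6 FPKM at T5 and 13.6 FPKM at T4).

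On the side of T6 the assays differed. The median log2 ratio of T5 over T6 was 0.61 in miCLIP and 4.42 in mRNA-seq, against 0.15 over all genes in miCLIP. In the miCLIP library labelled T6, the 149 genes had a median of 81.7 FPKM, against 136 FPKM in T5 miCLIP and 7.27 FPKM in T6 mRNA-seq. The level of the library labelled T6 was a median of 0.652 times that of T5, with quartiles of 0.335 and 0.929. T5 was at least 5 times both neighbours in miCLIP for 20 of 149 genes (13.4%), and for 7.67% of all genes tested. T5 was the highest of the 6 miCLIP libraries for 116 genes (77.9%, against 33.4% of all genes), and the library labelled T6 for the other 33 (22.1%, against 42.9% of all genes with a higher level in it than in T5). In the same library, the summed level of the 4 marker genes of trachea and epidermis (*Gasp*, *serp*, *verm* and *kkv*) was 2466 FPKM, against 2601 in T5 miCLIP. In mRNA-seq that sum was 303 FPKM at T6 and 2475 at T5. Not every sum of markers showed this difference. The sum of the muscle markers *Mlc2* and *up* was 2542 FPKM in the library labelled T6 and 4176 in T5 miCLIP, against 5515 at T6 and 5662 at T5 in mRNA-seq. For neurons (*elav*, *nSyb*, *Syt1* and *brp*) these sums were 143 and 232 FPKM in miCLIP, and 137 and 121 FPKM in mRNA-seq. Single markers differed. From T5 to T6 in mRNA-seq, *elav* fell from 20.4 to 9.57 FPKM, while *nSyb* (58.1 to 81.4), *Syt1* (23.7 to 27.8) and *brp* (18.3 to 18.5) rose. *Mlc2* rose from 3204 to 3546 FPKM and *up* fell from 2458 to 1969 FPKM. *Gasp* is itself among the 149 genes, and the part of the library in these differences was not tested.

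**Figure D2:**
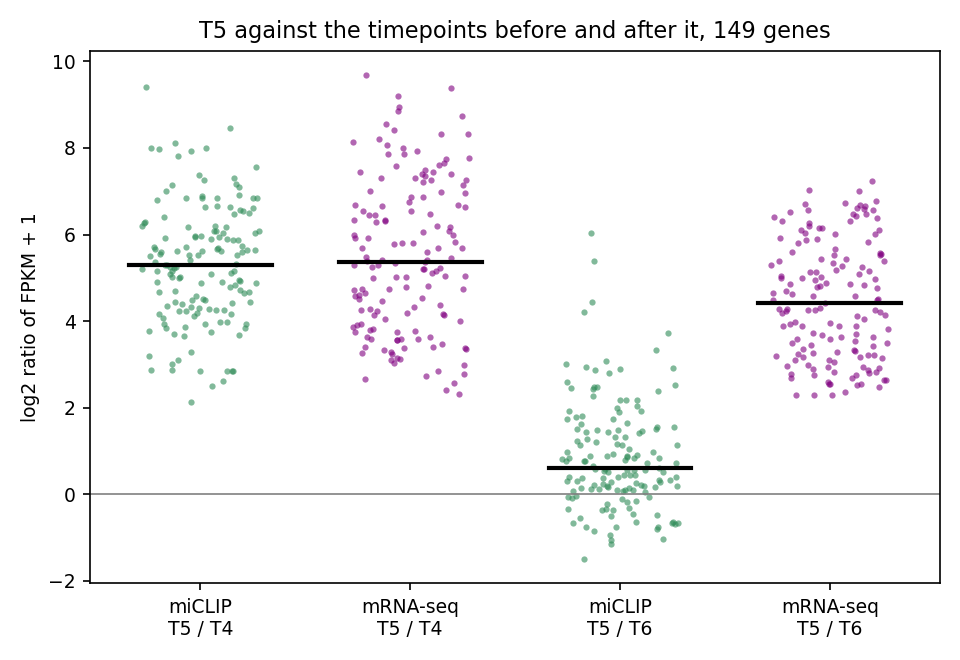
Log2 ratio of T5 over T4 and of T5 over T6, with 1 point for each of the 149 genes and the median as a black bar, for miCLIP (green) and mRNA-seq (purple). The medians of T5 over T4 are 5.31 in miCLIP and 5.36 in mRNA-seq, and those of T5 over T6 are 0.61 and 4.42. The mRNA-seq values are bounded from below by the rule.

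The genes with the highest ratio of the library labelled T6 over T5 included some with known functions. *CG6347*, now called *CtsL2*, a cathepsin L-like cysteine protease, had 150 FPKM in it, against 52.8 FPKM in T5 miCLIP. This was 2.85 times the T5 level, and the exact 95% counting interval, which covers counting error only, ran from 2.57 to 3.15. *CG32855* had 61.1 FPKM in it against 27.2 at T5 (2.24 times, interval 1.99 to 2.53). *CG15887* had 173 FPKM against 83.0 FPKM (2.09 times, 1.88 to 2.32). It is now called *apnoia* and is known from the maturation of tracheal tubes. *CG13627* and *CG15080* followed with 2.06 and 1.94 times. All of these had lower levels at T6 than at T5 in mRNA-seq, by the rule.

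At the other end were genes with few or no reads in the library labelled T6. *CG13618*, annotated as a juvenile hormone binding protein family member (*Jhbp12*), had no read in it and 65.1 FPKM in T5 miCLIP. This was at least 112-fold lower than at T5, taking 3 reads of 1 library as the floor. *CG33160*, a serine protease by its annotation, also had no read there and was at least 29.1-fold lower than at T5 (20.9 FPKM). *Edg78E*, a cuticle protein gene that was found as ecdysone-dependent, had 0.409 FPKM there against 57.8 at T5. *CG10026*, a protein with a CRAL-TRIO lipid-binding domain, had 0.851 FPKM against 33.1, and *CG13674* had 36.0 FPKM against 488.

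These differences in miCLIP went together with the shape of the mRNA-seq peak. The 47 genes that were higher at T4 than at T6 in mRNA-seq had a median ratio of 0.924 between the library labelled T6 and T5 in miCLIP. Of them, 22 (46.8%) were higher in it than at T5, close to the 42.9% of all genes. The 102 genes that were higher at T6 than at T4 had a median ratio of 0.517, and 11 of them (10.8%) were higher in it, below that share. Across the 149 genes, the log2 ratio of T4 over T6 in mRNA-seq and the log2 ratio of T6 over T5 in miCLIP had a Spearman correlation of 0.70 and a Pearson correlation of 0.65. This is a description over genes that share their libraries, and the mRNA-seq ratio uses levels that the rule also used. No such correlation over other genes is given here, so it cannot be called particular to this set. The rule limited the mRNA-seq levels at T4 and T6 relative to T5, but not their order. Higher ratios in miCLIP thus went with more RNA at T4 than at T6 in mRNA-seq, and lower ratios with more RNA at T6 than at T4. The 17 genes that marked T4 in mRNA-seq (at least 50 FPKM and 5 times T3, T5 and T6) were all higher in that library (median 88.7 FPKM) than in T5 miCLIP (median 34.8 FPKM).

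**Figure D3:**
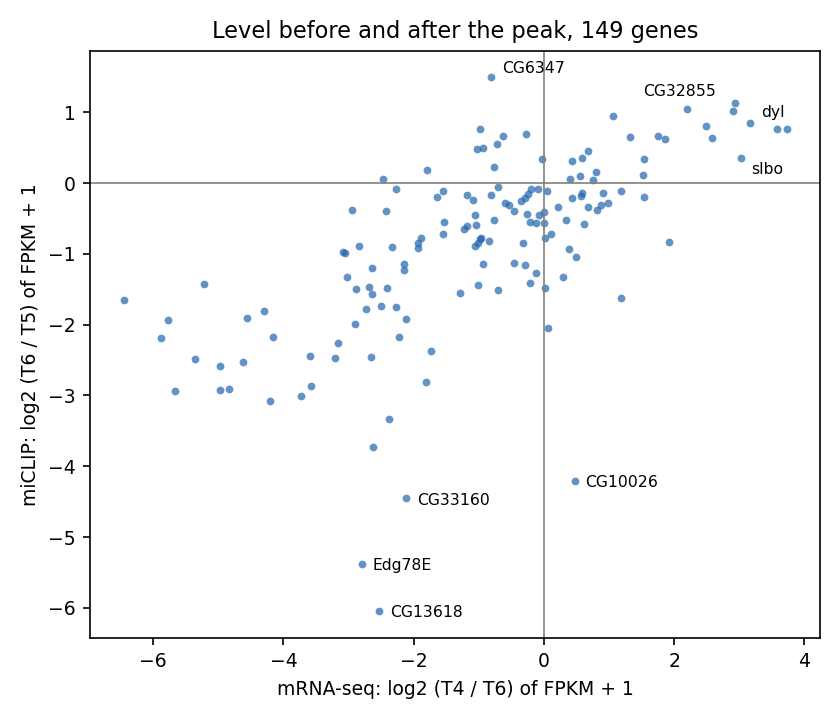
For each of the 149 genes (points), the log2 ratio of T4 over T6 in mRNA-seq (x axis) against the log2 ratio of the library labelled T6 over T5 in miCLIP (y axis), both of FPKM + 1. Genes to the right of 0 were higher before the peak than after it, and 22 of these 47 lie above 0 on the y axis, compared with 11 of the 102 genes on the left. Over all genes that reached 1 FPKM in T5 miCLIP, 42.9% were higher in the library labelled T6. *CG13618* and *CG33160* had no read in the library labelled T6, so their depth on the y axis depends on the pseudocount.

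At T5, both assays ranked the 149 genes alike, with a Spearman correlation of 0.87 across genes. On the log2 scale, the median ratio of miCLIP to mRNA-seq at T5 was -0.38, compared with -0.07 over the 9110 genes that reached 1 FPKM in both libraries and -0.49 over the 1893 other genes with at least 50 FPKM in T5 mRNA-seq. A ratio over 2-fold higher in miCLIP was found for 4 of 149 genes (2.68%), against 14.3% of all genes and 4.12% of the other abundant ones. A ratio over 2-fold lower was found for 29 genes (19.5%), against 16.5% of all genes and 26.1% of the other abundant ones. Both shares were lower than among the other abundant genes of the same library. The rule chose the genes by a high level in T5 mRNA-seq, the denominator of this ratio. Low ratios are therefore partly fixed by the choice, and these values are a description only.

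The gene with the highest ratio was *ftz-f1*, a nuclear receptor whose products act in early segmentation and later in the ecdysone cascade. It had 52.9, 40.1, 25.7, 7.73, 452 and 287 FPKM in miCLIP from T1 to T6. Its levels in mRNA-seq were 22.4, 21.1, 7.28, 3.16, 117 and 8.78 FPKM. At T5 miCLIP was 3.88 times mRNA-seq (interval 3.81 to 3.95), a log2 ratio of 1.95. Its miCLIP level thus exceeded its mRNA-seq level at every timepoint, at T1 and T2 as well as at the T5 peak.

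The other genes over 2-fold higher in miCLIP were *CG13066* (1084 FPKM in miCLIP and 391 in mRNA-seq at T5, log2 ratio 1.47), *exp* (141 and 61.3 FPKM, 1.19) and *CG14327* (240 and 118 FPKM, 1.02). *exp* (*expansion*) is required with the chitin synthase *kkv* for chitin deposition in tracheal tubes. The transcription factor *slbo*, the fly C/EBP, followed with 388 FPKM in miCLIP and 195 in mRNA-seq (0.99). At the low end were *CG15024* (49.3 FPKM in miCLIP and 190.0 in mRNA-seq, -1.92), *CG11584* (92.5 and 347, -1.90), *CG2663* (50.3 and 169, -1.73), *CG13297* (91.3 and 297, -1.69) and *CG14515* (18.6 and 61.0, -1.66). *CG2663* encodes a protein with a CRAL-TRIO domain. These values come from reads on whole genes, so they do not say where on a message the antibody bound.

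**Figure D4:**
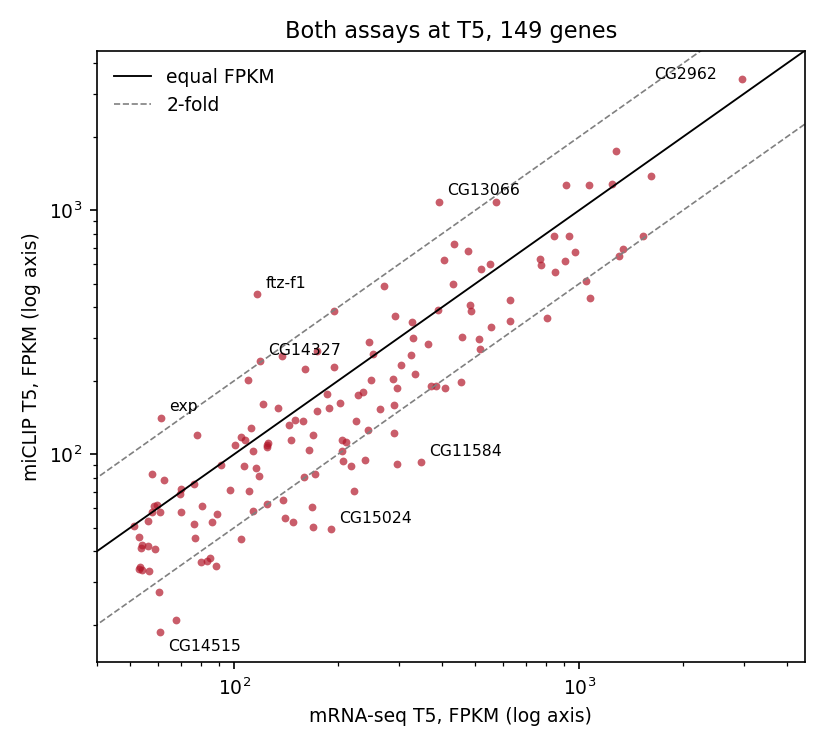
FPKM at T5 in miCLIP (y axis) against mRNA-seq (x axis) for the 149 genes, both on log axes, with the line of equal values and the lines of 2-fold difference. The points follow the diagonal (Spearman correlation 0.87), and *ftz-f1*, *CG13066*, *exp* and *CG14327* lie over the upper line.

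By function, 35 of the 149 genes were grouped from their known roles, after the values had been seen. Chitin genes were *Gasp* and *obst-A*, which encode chitin-binding proteins of the developing cuticle and trachea, the chitinase *Cht7*, and *exp*. *Gasp* had 6.05, 0.686, 1.15, 87.9, 914 and 58.8 FPKM from T1 to T6 in mRNA-seq, and 0.0569, 10.7, 5.84, 37.8, 1263 and 1108 FPKM in miCLIP. It was therefore present at T4 before its peak. *obst-A* had 32.6 FPKM at T4, 485 at T5 and 24.4 at T6, and *Cht7* had 13.8, 243 and 29.6 FPKM, all in mRNA-seq. Of the 21 genes of a wider list of chitin synthesis, assembly and turnover in the table, 16 were highest at T5 among T4 to T6, and these 4 met the rule. Of all 14977 genes, 25.3% were highest at T5 among T4 to T6 in mRNA-seq, which is the background for this and the lists that follow. That share includes 2360 genes listed at 0 in T5 mRNA-seq, 995 of them with no read in any library. Such genes could not be highest at T5, so the share over genes with reads at T5 would be higher. The numbers of the lists include their genes that met the rule, for which a maximum at T5 was fixed by it.

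The cuticle proteins that the rule kept, since their symbols do not start with a dropped family name, were *Edg78E*, *Tb* (*Tubby*, a member of the *Twdl* family), *CG34461*, and *CG30101* and *CG16886* (now *Vajk4* and *Vajk1*). All 5 were higher at T6 than at T4 in mRNA-seq and none was higher in the library labelled T6 than at T5 in miCLIP. *CG30101* was the most abundant, with 3.89 FPKM at T4, 851 at T5 and 13.2 at T6. *Edg78E* was the least abundant, with 0.191, 60.7 and 7.27 FPKM. The 40 genes of the dropped families, shown only for comparison, had a median log2 ratio of T5 over T6 of 0.51 in miCLIP, and 25 of them were highest at T5.

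Genes of the outer barrier were the ABC transporters *CG9990* (*snustorr*) and *CG33970* (*oskyddad*), and *CG2837* (*snustorr snarlik*), an extracellular protein. All 3 are known from the barrier against water loss. In mRNA-seq from T4 to T6 they had 2.27, 144 and 15.5 FPKM, 0.388, 54.02 and 5.13 FPKM, and 2.26, 112 and 11.5 FPKM. In the library labelled T6 their miCLIP levels were between 0.412 and 0.533 times those at T5.

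Fatty acid enzymes were the elongases *CG2781* (*Elovl7*) and *CG31522*, the desaturase *CG9747* and the fatty acyl-CoA reductases *CG1441*, *CG8303* and *CG30427*. Such enzymes make the long chain lipids of the cuticle surface and the tracheal lining. They had between 140 FPKM (*CG30427*) and 519 FPKM (*CG9747*) at T5 in mRNA-seq. All 6 were higher at T6 than at T4 in mRNA-seq, and all had lower levels in the library labelled T6 than at T5 in miCLIP. None of the 9 genes of a general list of surface lipid genes was among the 149, and 5 of them were highest at T5 among T4 to T6.

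The tanning genes *amd* and *laccase2* differed in profile. *amd*, an enzyme of catecholamine metabolism in the cuticle, had 7.20, 14.4, 159 and 3.58 FPKM from T3 to T6 in mRNA-seq. *laccase2* (now *straw*), the phenol oxidase that cross-links the cuticle, had 2.49, 3.73, 56.3 and 7.03 FPKM. In miCLIP, *amd* had 128 FPKM in the library labelled T6 against 80.5 at T5, and *laccase2* had 36.9 against 53.1. Of the 19 tanning and pigment genes of the list in the table, 14 were highest at T5 among T4 to T6. The zona pellucida domain gene *dyl* (*dusky-like*), which shapes the apical matrix, was the only 1 of 13 such genes to meet the rule. It had 31.8, 288 and 2.64 FPKM from T4 to T6 in mRNA-seq, and 12.3, 204 and 368 FPKM in miCLIP.

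Among the hormone genes, *Cyp18a1*, the hydroxylase that inactivates ecdysone, had 7.04, 110 and 8.81 FPKM from T4 to T6 in mRNA-seq and 2.40, 70.5 and 60.8 FPKM in miCLIP. It and *ftz-f1* were the 2 of the 30 ecdysone response genes in the table that met the rule, and 12 of the 30 were highest at T5 among T4 to T6. The lists of denticle regulators (12 genes in the table), serine proteases and serpins (12) and salivary gland and gut lumen genes (19) held none of the 149 genes. Peptidases outside those lists were present. *Try29F*, a trypsin, had 3.0, 408 and 19.8 FPKM from T4 to T6 in mRNA-seq and 1.77, 186 and 17.6 FPKM in miCLIP. *CG6337* and *CG6347*, neighbours on the chromosome and both cysteine protease genes, had 223 and 148 FPKM in T5 mRNA-seq. Only *CG6347* of this pair was higher in the library labelled T6 (150 FPKM) than at T5 (52.8) in miCLIP, since *CG6337* had 35.1 FPKM there and 70.7 at T5.

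Genes of this set often lay next to one another. On the current assembly, 32 of the 149 (21.5%) had another of them within 2 genes on either side, compared with 3.16% of the 14821 genes of the table that could be placed. They formed 11 runs, 5 of them with 3 or more genes. The longest run held 7 genes (among them *CG14095*, *CG14096*, *CG32214*, *CG12519*, *CG18294* and *CG32213*), with between 188 and 454 FPKM at T5, at most 1.34 at T4 and between 4.98 and 13.8 at T6 in mRNA-seq. All 7 had lower levels in the library labelled T6 (35.2 to 102 FPKM) than at T5 (154 to 389 FPKM) in miCLIP. Tandem genes such as these may be similar in sequence. This was not examined here, and reads that they share could make their values more alike.

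There were 4 other runs of 3 or more genes. The run *CG13049*, *CG13048*, *CG13047* and *CG13046* had between 113 and 481 FPKM at T5, and the run *CG13051*, *CG13069* and *CG13068* between 433 and 1063 FPKM, all in mRNA-seq. The run *CG14570*, *CG14568* and *CG14573* had between 124 and 304 FPKM. In the run *CG15022*, *CG15023* and *CG15024*, the first gene had 1249 FPKM in the library labelled T6 and 1374 FPKM in T5 miCLIP. The second had 180 FPKM in that library and 1085 at T5, and the third 4.93 and 49.3 FPKM. The log2 ratio of the library labelled T6 over T5 in this run thus ran from -3.08 to -0.14. In some other runs it spanned less than 0.5, from -2.53 to -2.17 in the run of *CG13051*, from -2.93 to -2.48 for *CG17290* and *CG30458*, from -0.34 to -0.17 for *CG5928* and *CG4666*, and from -0.30 to -0.28 for *Tpc2* and *CG9083*, which overlap.

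The genes had short and simple models. Of the 148 with a coding sequence, 52 (35.1%) had fewer than 200 codons, against 21.8% of the 13344 coding genes of the table, and 73 (49.3%) had 1 or 2 exons, against 39.4%. Their median coding length was 306 codons, compared with 394 codons over the table. The 102 genes that were higher at T6 than at T4 in mRNA-seq had a median of 267 codons, and the 47 others a median of 349 codons. Of the 149 genes, 123 had only a CG symbol in the table, and 112 of these still have none other in the current annotation. The share of such symbols over all genes is not given here.

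Before T4, most of the genes were near 0 in mRNA-seq except in T1. There were 63 genes below an FPKM of 1 at T1, T2 and T3 (42.3%, against 46.5% of all genes). After scaling of all libraries to 1 common sum this number was 10. Without T1, 120 genes were below 1 at T2 and T3 (80.5%, against 47.8% of all genes). The shares of all genes include 995 genes with no read in any library. At T1, 84 genes reached 1 FPKM, whereas 18 had this level at T2 and 25 at T3. T1 was above T2 for 147 of 149 genes, a number without a share over all genes. Of the 84 genes, 56 (66.7%) had at least 5 times the level of T2, against 2.6% of all 7035 genes that reached 1 FPKM in T1.

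The T1 level of a gene went with its level at T5, with a Spearman correlation of 0.75 across the 149 genes as a description. It was a median of 0.515% of the T5 level, with quartiles of 0.402% and 0.710%. Between 0.3% and 0.7% lay 103 genes, a number without a share over all genes. At T2 the median share was 0.0751%. *CG2962*, the most abundant gene at T5, had 13.4 FPKM at T1 against 1.38 at T2, and *CG15212* had 5.63 against 0.121. The 40 genes of the dropped families had a similar median share of 0.436% at T1 and 0.0470% at T2. The 17 genes that marked T4 in mRNA-seq had a median T1 level of 0.677% of T4, within the quartiles of the 149 genes. The 298 that marked T6 had a lower one, 0.075% of T6. In the miCLIP library of T1, made from the same RNA, the reads were spread differently over the 149 genes. The expected reads took the T5 miCLIP level of each gene times its share of T1 over T5 in mRNA-seq. By this the 149 genes would have had 11136 reads in T1 miCLIP, and they had 12791. Of these, 7801 were on 5 genes (*ftz-f1*, *ken*, *qless*, *laccase2* and *CR31781*). Of the 131 genes that would have had at least 3 reads, 107 had fewer than that share gives and 83 had none. The source of the T1 share was not tested.

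**Figure D5:**
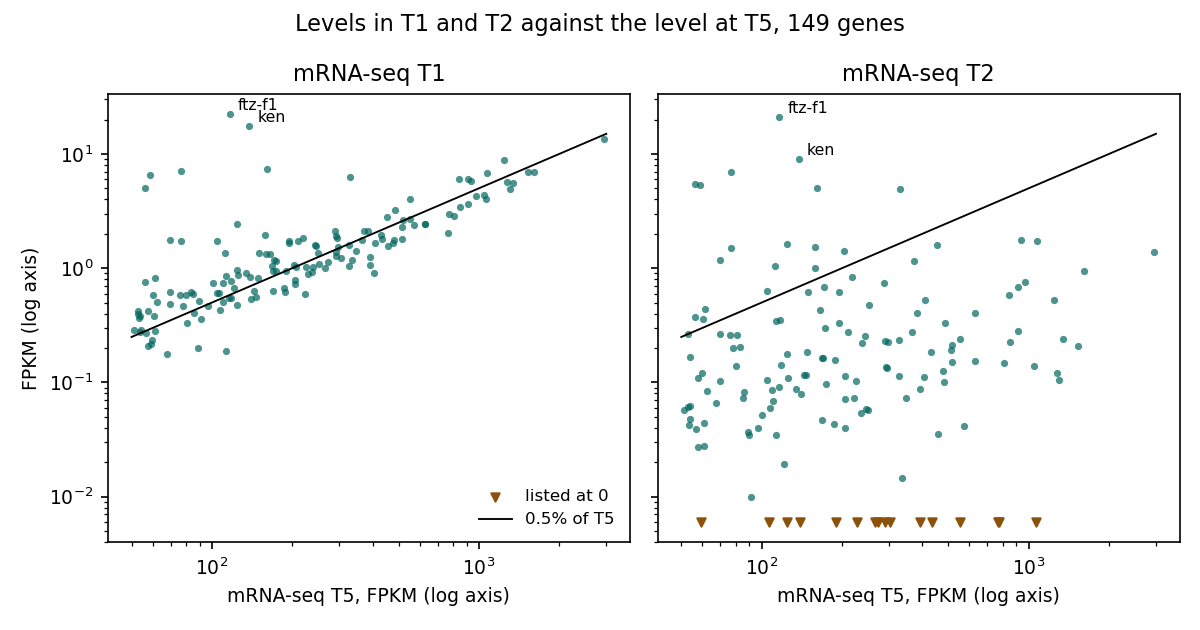
FPKM in T1 (left) and T2 (right) mRNA-seq against FPKM in T5 mRNA-seq for the 149 genes, on log axes, with a line at 0.5% of the T5 level and triangles for genes listed at 0. In T1 most points follow the line, whereas in T2 most lie under it, and *ftz-f1* and *ken* lie over it in both.

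A few genes stood out from this share and had RNA at T2 as well. T1 was at least 2% of T5 for 8 genes (*ftz-f1*, *ken*, *GLaz*, *CG43204*, *laccase2*, *qless*, *CG12769* and *CG11382*), and T2 for 6. The highest levels at T1 were those of *ftz-f1* (22.4 FPKM), *ken* (17.5), *CG2962* (13.4), *CG9083* (8.84) and *qless* (7.36). Of these, *CG2962* and *CG9083* are not among the 8 genes. *ken*, a BTB zinc finger repressor, had 17.5, 9.04, 3.47, 12.1, 138 and 14.1 FPKM from T1 to T6 in mRNA-seq and 55.6, 24.2, 12.8, 14.2, 253 and 239 FPKM in miCLIP. *qless*, which makes the side chain of ubiquinone, had 7.36 and 5.01 FPKM at T1 and T2 in mRNA-seq, and 35.4 and 12.1 FPKM in miCLIP. *laccase2* had 4.99 and 5.4 FPKM, and the lipocalin *GLaz* had 6.59 and 5.37 FPKM in mRNA-seq. The genes *ftz-f1*, *ken*, *qless*, *laccase2* and *CG2962* also had reads in T1 miCLIP, while *GLaz* had none. In T1 miCLIP, 101 of the 149 genes were listed at 0.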

How the data were processed

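The values were made by the authors and deposited as 1 table of FPKM for 14977 genes in 12 libraries. According to the study's methods and the processing notes, adaptors were trimmed with Flexbar, PCR duplicates of miCLIP reads were removed with pyCRAC, reads were mapped with Subread to release 5 of the genome, and counted on genes with featureCounts. The authors normalized the counts with DESeq. Versions, gene lengths and the strand setting are not given in the sources used here, so overlapping or similar genes may share reads. FPKM sums differ between libraries and were highest at T6 in both assays.

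Columns were matched to libraries by name, and 0 columns stayed unmatched. Reads per gene were recovered from the steps of single reads in the FPKM values of 13982 genes. This was tested on simulated data, where 99.8% of 10947 genes were exact. Reads served only for depth, for the floor of 3 reads and for exact Clopper-Pearson intervals (95%), which cover counting error only. Log2 ratios used a pseudocount of 1. The denominators of the background shares differed. Shares within miCLIP took genes that reached 1 FPKM in T5 miCLIP, and shares of miCLIP against mRNA-seq those that reached it in both T5 libraries. The share for T1 over T2 took genes that reached 1 FPKM in T1. The shares highest at T5 among T4 to T6 and below 1 FPKM in mRNA-seq had no such limit and covered all 14977 genes. No test was possible, as no library has a replicate. Current symbols, gene order and coding lengths come from the BDGP6.54 annotation, which held all 149 genes and 14821 of the table. No coordinates or sequences are given, since it is of a later assembly.

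The genes and the gene lists were chosen with earlier results of these data known. Named genes are the 12 most abundant at T5, the 6 with the steepest peak, those next to each threshold, the 5 highest and lowest in each miCLIP ratio, the 5 highest at T1 or T2, list members and runs of neighbours, and some genes were named for their known role after their values were seen. Python 3.11.15, numpy 2.4.6, pandas 2.3.3 and scipy 1.17.1 were used.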

Additional observations from a re-analysis of the deposited data

Results flagged for a closer look

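Between T5 and T6, 33 of the 149 genes (22.1%, against 42.9% of all genes) were higher in the miCLIP library labelled T6 than in T5 miCLIP, while they were lower at T6 than at T5 in mRNA-seq. The mRNA-seq direction was fixed by the rule that chose the genes. With 1 library per assay and timepoint this difference was not tested. For 29 genes the exact counting interval of the miCLIP ratio lay above 1, for 108 it lay below 1 and for 10 it held 1. After the libraries were scaled to 1 common sum, 25 genes were higher in the library labelled T6.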

How the results depend on the processing

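No library has a replicate, and a comparison of the assays paired over the 6 timepoints was not run. Of 48 values of the comparisons under an alternative, 38 stayed within 1.5 times (numbers of genes) or 0.1 (log2 medians) of the value given, 10 moved and 0 changed direction. Only medians could change direction, since numbers of genes have none. The 38 include the alternatives of at least 20 reads and of no filter on low values, which could not move any value. Every gene had at least 101 reads and 18.6 FPKM in T5 miCLIP, so neither alternative changed the set. After scaling of every library to sum to 1000000, the median log2 ratio in miCLIP was 0.90 for T5 over T6 and 5.09 for T5 over T4, and 10 genes were below an FPKM of 1 at T1, T2 and T3. Scaling raised the mRNA-seq values of T1, T2 and T3, while the limit of 1 stayed the same. The median of T5 over T4 in miCLIP was 5.53 for the 122 genes that pass a fold of at least 8 and 5.87 with a pseudocount of 0.1. With a fold of 2 in place of 5, 56 genes were higher at T5 than at T4 and T6 in miCLIP. With other limits than 1, 0 genes (below 0.1) and 130 genes (below 5) were low at T1, T2 and T3. Leaving out libraries was chosen after seeing the data: without the miCLIP library labelled T6, 148 genes were at least 5 times higher at T5 than at T4, and without T1 of mRNA-seq, 120 genes were below 1 at T2 and T3. The causes were not tested. For 20 ratios of named genes, 0 of 40 values changed direction and the largest shift was 3.30 (*CG13618*, no read in the library labelled T6, pseudocount 0.1). Promoter motifs, protein composition and their alternatives were not run.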
